A study of Ovis aries with 40 samples.

Results

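The mitochondrial ribosomal proteins were taken as all genes on the array whose symbol begins with MRPL or MRPS followed by a digit. The rule found 67 of the 9155 genes that had a probe set with 1 gene symbol, measured by 84 probe sets in all. Where several probe sets carried 1 symbol (14 of the genes), the one with the highest mean signal stood for the gene. The rule reads symbols, and signals entered it only through the choice of probe set. Of the 67 genes, 64 were detected, meaning that their mean signal over the animals reached 61.8, the median of all probe sets other than controls. The 3 that did not reach it were MRPS2, MRPL46 and MRPL36.

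The animals were 40 Poll Dorset sheep, a meat breed, all sampled in the longissimus dorsi (LD), the long muscle of the back, at 78 weeks of age. They were the progeny of 6 sires chosen for extreme estimated breeding values for eye muscle depth, a measure of muscling. The 19 high muscling animals descended from sire 11 (8 progeny), sire 2 (7) and sire 7 (4), and the 21 low muscling animals from sire 16 (8), sire 17 (5) and sire 5 (8). No animal received a treatment, and no sire had progeny in both groups, so a difference between the groups is also a difference between 3 sires and 3 other sires.

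Mitochondria keep a ribosome of their own, which makes the few proteins encoded by mitochondrial DNA. These are core subunits of the respiratory chain and of ATP synthase, so this ribosome is needed for oxidative energy supply in muscle. Its proteins are all encoded in the nucleus, made in the cytosol and imported. They form a large subunit, which joins amino acids into a chain, and a small subunit, which reads the messenger RNA. Some have a counterpart in the bacterial ribosome and others were acquired during the evolution of mitochondria. Of the 67 genes, 45 belong to the large subunit (MRPS30 and MRPS18A among them, in spite of their names) and 22 to the small subunit. MRPS36 carries a small subunit symbol and was counted there, although its product is now described as part of the oxoglutarate dehydrogenase complex.

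RNA was hybridised to a bovine array, 1 per animal, so a probe set that matches the sheep sequence poorly reads low, and the signals of different genes cannot be ranked as amounts of RNA. The 7 skeletal muscle markers measured had mean signals from 17446 (MYH7, the slow myosin heavy chain) to 29156 (CKM, muscle creatine kinase), so the labelled tissue carried its defining markers. In bulk muscle, fewer cells of a type and less RNA per cell cannot be told apart. The spiked hybridisation controls averaged 11.11 to 11.13 (log2 signal) in the 3 high muscling families and 10.99 to 11.05 in the 3 low ones. The ratio of 3′ to 5′ signal of the control transcripts, a measure of RNA integrity, averaged 0.06 to 0.17 on the log2 scale over the 6 families. The labels name no batch.

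Among the 67 genes the mean signals were highest for MRPL43 (2394), MRPL51 (2321) and MRPL50 (2275), all large subunit proteins without a bacterial counterpart. They were lowest for MRPS2 (35.2), MRPL46 (46.3) and MRPL36 (47.3), the 3 undetected genes. MRPL15, with a mean of 64.8, was just inside the limit.

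The first question was whether muscling groups differed in the expression of these genes. In the limma fit over the 6360 detected genes, which took sire as a random block, 7 of the 64 detected mitochondrial ribosomal protein genes (10.9%) were called at an adjusted p under 0.05, and all 7 were lower in high muscling. Of all detected genes, 7.78% were called in either direction and 5.50% were called lower in high muscling, and these shares were not tested against that of the 64. The 7 genes were MRPL20, MRPL21, MRPL42 and MRPL50 of the large subunit, and MRPS6, MRPS16 and MRPS24 of the small one. The estimated difference was negative for 48 of the 64 genes (75%), compared with 55.8% of all detected genes. Its median was -0.14 on the log2 scale, compared with -0.04 over all genes. None was called higher in high muscling.

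**Figure D1:**
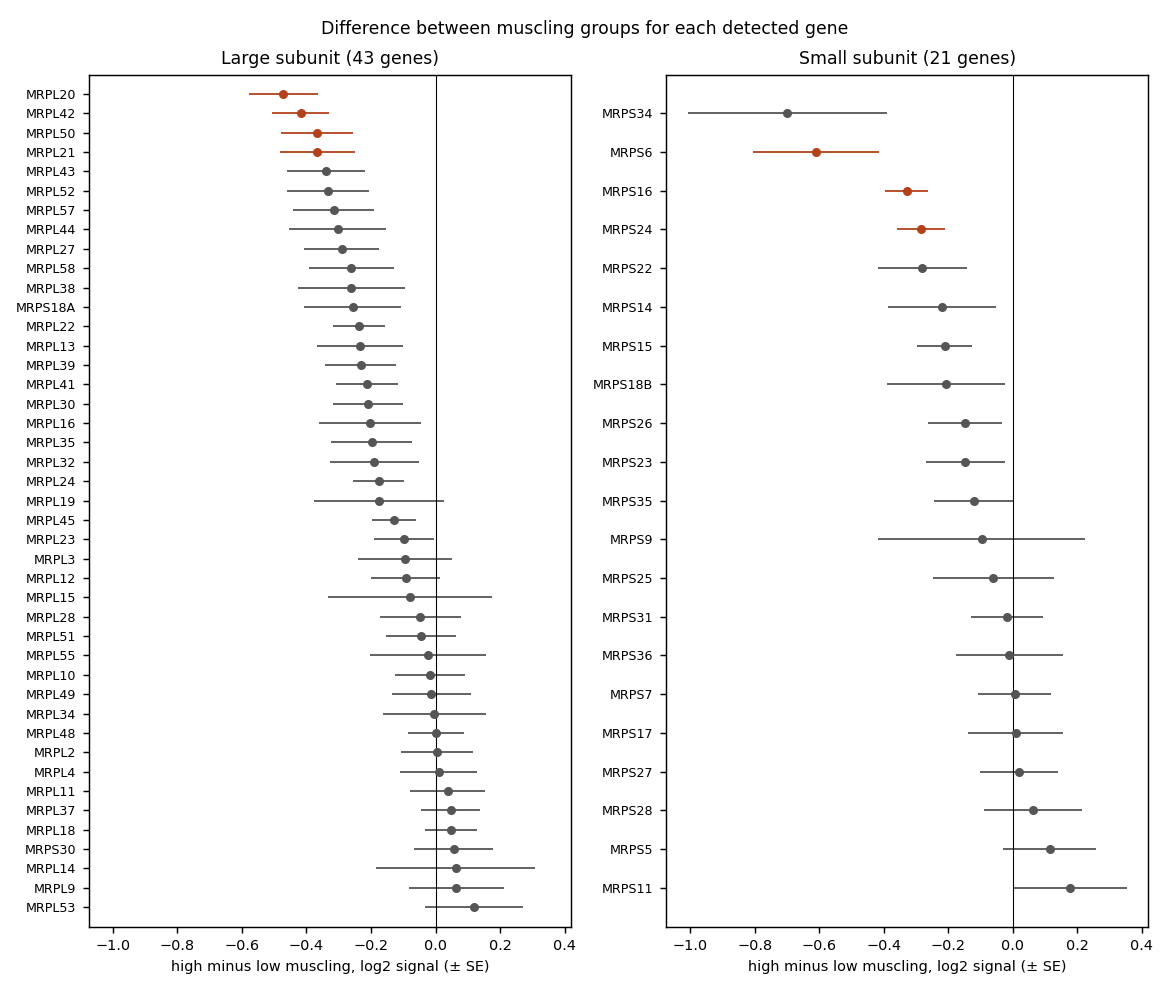
Difference in log2 signal, high minus low muscling, for the 43 large subunit genes (left) and the 21 small subunit genes (right) that were detected. Points are estimates of the fit with sire as a random block, bars are 1 SE, and orange marks the 7 genes called at an adjusted p under 0.05; 48 of the 64 points lie below 0.

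MRPS16, the counterpart of a bacterial protein in the body of the small subunit, had the smallest adjusted p. Its signal in high muscling animals ran from 1174 through a median of 1366 to 1606. In low muscling animals it ran from 1475 through 1736 to 1990. The groups overlapped in part: 17 of the 21 low animals lay above the highest high animal, and 12 of the 19 high animals below the lowest low one. The difference was -0.33 ± 0.07 (log2, SE; limma adjusted p = 0.0020), a signal 20.4% lower in high muscling. MRPS16 was also among the 11 of 64 genes (17.2%) for which the means of the 3 high sires all lay below those of the 3 low sires, an order found in 11.4% of all detected genes.

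MRPL42, a large subunit protein without a bacterial counterpart, ranged from 790.2 through 914.3 to 1061 in high and from 826.1 through 1231 to 1621 in low muscling. Of the low animals, 17 lay above every high animal, but the other 4 fell among them. The difference was -0.42 ± 0.09 (limma adjusted p = 0.0028). All 5 progeny of sire 17 were at the bottom of the low group, with signals of 826.1, 870.0, 942.1, 1049 and 1087.

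MRPL20, whose bacterial counterpart is an early assembly protein of the large subunit, ranged from 1412 through 1717 to 2216 in high and from 1726 through 2276 to 3848 in low muscling. The difference was -0.47 ± 0.11 (limma adjusted p = 0.0051). Its means for the 3 high sires, 10.71 to 10.79, all lay below those for the 3 low sires, 11.00 to 11.34. MRPL20 was the only one of the 7 with a further probe set. That probe set, with a mean signal of 559.5, correlated with the first at r = 0.52 over the 40 animals and averaged 9.02 ± 0.15 (SD, n = 19) in high and 9.20 ± 0.18 (SD, n = 21) in low muscling, the same direction at a smaller size.

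MRPS24, a small subunit protein with a bacterial counterpart near the entry of the messenger RNA, ranged from 1527 through 1963 to 2400 in high and from 1790 through 2448 to 2955 in low muscling. The difference was -0.28 ± 0.07 (limma adjusted p = 0.0126). MRPL21, counterpart of a bacterial large subunit protein, ranged from 512.3 through 746.4 to 938.9 and from 708.8 through 1012 to 1540, with a difference of -0.37 ± 0.12 (limma adjusted p = 0.0438). In both genes the groups overlapped, with 12 low animals for MRPS24 and 16 for MRPL21 above every high animal.

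MRPL50, another large subunit protein without a bacterial counterpart, ranged from 1298 through 1963 to 2494 in high and from 1371 through 2725 to 3427 in low muscling. The difference was -0.37 ± 0.11 (limma adjusted p = 0.0347). MRPS6, a small subunit protein with a bacterial counterpart, had the widest spread of the 7, from 248.7 through 557.0 to 1051 in high and from 428.9 through 868.9 to 1370 in low muscling. Its difference was -0.61 ± 0.20 (limma adjusted p = 0.0454), and the lowest values of the high group were those of sire 11. The calls of MRPL21 and MRPL50 were lost under quantile normalisation (limma adjusted p = 0.0556 and 0.0554), that of MRPL50 also with the spiked controls as a covariate (0.1754), and those of MRPL21 and MRPS6 at 2 times the detection limit (0.0583 and 0.0557). The next 3 genes in order of p were MRPL22, MRPL43 and MRPL52, with differences of -0.24, -0.34 and -0.33 and limma adjusted p of 0.0639, 0.0739 and 0.1025.

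**Figure D2:**
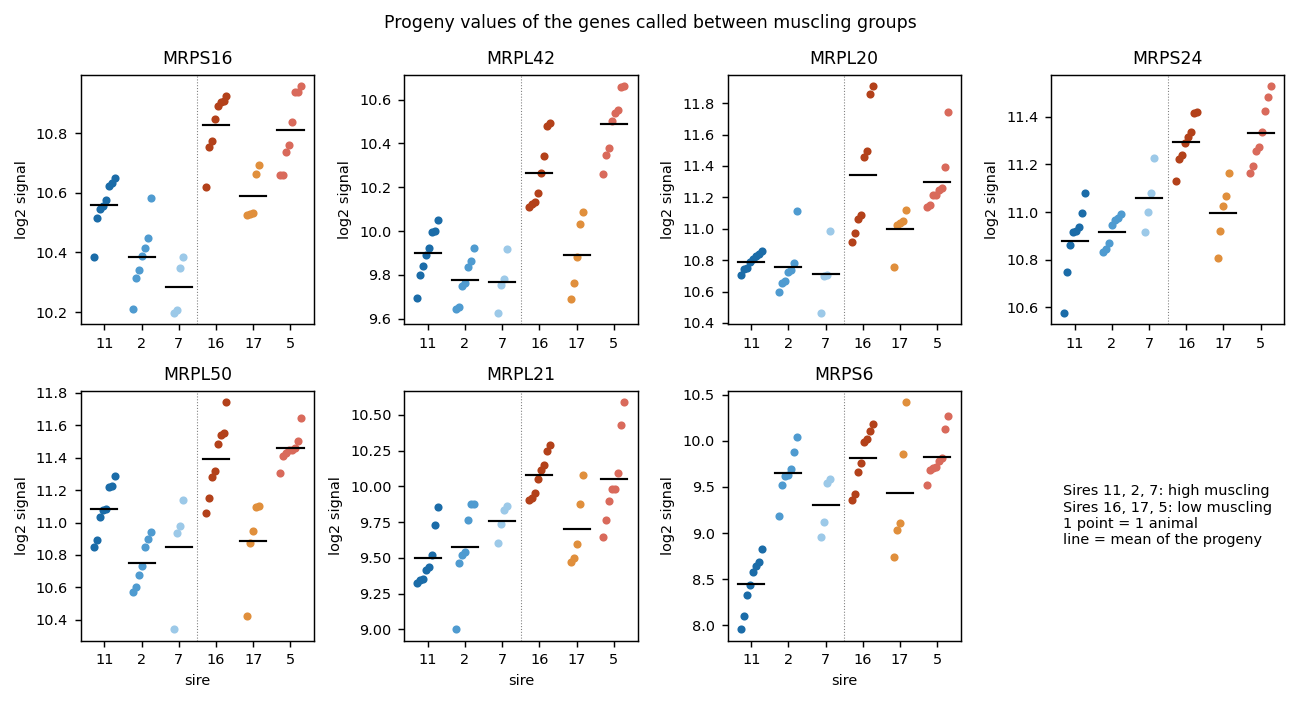
Log2 signal of the 7 genes called between muscling groups, 1 point per animal, by sire (11, 2 and 7 high muscling; 16, 17 and 5 low muscling), with the mean of each family as a line. Progeny of sires 16 and 5 sit highest in most panels, progeny of sire 17 lie nearer to the high muscling families, and sire 11 stands lowest for MRPS6.

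The number of calls depended on which families were included. Without the progeny of sire 16, no mitochondrial ribosomal protein gene was called by limma, and 0.456% of all detected genes were called. An unadjusted limma p under 0.05 was found for 9 of the 64, compared with 772 of all 6360 detected genes. Without the progeny of sire 5, again none was called, with 0.362% of all genes called. Here 8 of the 64 had an unadjusted limma p under 0.05, compared with 778 of all 6360. Without the progeny of sire 17, 15 of the 64 (and 19.2% of all genes) were called, and without those of sire 11, 8 (10.8% of all genes). Without sire 2 or sire 7, 4 were called in each case, with 4.56% and 4.28% of all genes. The 7 genes had been called in the same animals, so the sign of their differences in these fits is no independent support. The differences of all 7 genes stayed negative in each fit. Without sire 16 they were -0.41 for MRPL20, -0.40 for MRPL42, -0.29 for MRPS16 and -0.55 for MRPS6, and without sire 5 they were -0.43, -0.28, -0.30 and -0.54. MRPL21 and MRPL50 also lost their calls without sire 2 and without sire 7. MRPS24 lost its call without sire 2 (limma adjusted p = 0.0768) and MRPS6 without sire 7 (limma adjusted p = 0.0637). Without sire 11, MRPL21 and MRPS6 lost theirs. Treating the 6 sire means as the samples left 0 of 64 called by limma. An unadjusted limma p under 0.05 was found for 5 of the 64, compared with 886 of all 6360. An exact permutation test (two-sided) over the 6 sire means gave p = 0.1 for MRPS16 and MRPL20, the smallest that 3 against 3 allows, and p = 0.2 for the other 5.

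Some markers of other cell types were also called lower in high muscling. Of 6 fibroblast markers, 5 had a negative difference and 4 were called lower, compared with 5.50% of all detected genes. Among the 4 were COL1A2 (-0.78 ± 0.23, limma adjusted p = 0.0278) and COL3A1 (-1.08 ± 0.31, limma adjusted p = 0.0251), chains of the main fibrous collagens. All 4 macrophage markers had a negative difference, with a median of -0.62, and 1 was called, AIF1 (-0.95 ± 0.25, limma adjusted p = 0.0156). Of 4 detected fat, 5 detected vessel and 7 muscle markers none was called. The difference was negative for 4 of the fat, 4 of the vessel and 1 of the muscle markers, and the median of the muscle markers was 0.07. The summed fibroblast signal ran from 4745 through 7964 to 11650 in high and from 7376 through 11933 to 21951 in low muscling. The summed macrophage signal ran from 346.5 through 674.0 to 930.1 in high and from 422.1 through 1113 to 1664 in low muscling. Fat markers LEP and CIDEA and the vessel marker KDR were below the detection limit. The part of these cells in the differences of the mitochondrial ribosomal proteins was not tested.

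The large and the small subunit gave like counts. Of 43 large subunit genes 4 were called and 33 had a negative difference, with a median of -0.18. Of 21 small subunit genes 3 were called and 15 had a negative difference, with a median of -0.12. Genes with a bacterial counterpart had 5 of 37 called and a median of -0.10, and those without had 2 of 27 and a median of -0.15. The difference between these medians was not tested. Over all detected genes, 7.78% were called in either direction, 5.50% were called lower in high muscling, and 55.8% had a negative difference.

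The second question was whether sires of the same muscling group differed. The F-test over the 4 contrasts between sires within groups called 18 of the 64 genes (28.1%), 12 of the large and 6 of the small subunit, compared with 22.0% of all detected genes. Of the 7 genes called between muscling groups, 5 were also called here; MRPL20 and MRPL21 were not, with limma adjusted p of 0.2524 and 0.1247. MRPS24 lost its call under median centring (limma adjusted p = 0.0921), and MRPL20 gained one with the mean over its probe sets (limma adjusted p = 0.0448). Of the 18, 17 were also called in the contrast of sire 11 with sires 2 and 7 or that of sire 17 with sires 16 and 5. The other was MRPL19, a large subunit protein with a bacterial counterpart, whose differences in those contrasts had limma adjusted p of 0.195 and 0.370. Its greatest difference, 0.71 ± 0.21 between sires 16 and 5, was not called either (limma adjusted p = 0.468). Sires 2 and 7 differed in none of the 64 genes by limma (2 with an unadjusted p under 0.05), nor in any of all detected genes (0% called, 355 with an unadjusted p under 0.05). Sires 16 and 5 differed in none of the 64 either (4 with an unadjusted p under 0.05), and in 0.0314% of all detected genes (414 with an unadjusted p under 0.05).

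Sire 17 stood below sires 16 and 5. Of the 64 genes, 15 (23.4%) were called lower in its progeny and none higher, while of all detected genes 14.1% were called in either direction and 9.70% lower. The 15 were MRPL10, MRPL11, MRPL12, MRPL27, MRPL28, MRPL39, MRPL41, MRPL42, MRPL48, MRPL50, MRPL57, MRPS7, MRPS15, MRPS16 and MRPS24. The difference was negative for 59 of the 64 genes, with a median of -0.24, compared with -0.07 over all detected genes. Without progeny 85 of sire 17 the count was 8 of 64, and 10.6% of all detected genes were called.

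MRPL50 showed the steepest of these differences among the 15 genes, and MRPL42 the smallest adjusted p. The signals of MRPL50 in the 5 progeny of sire 17 were 1371, 1877, 1971, 2193 and 2195. Those in the progeny of sire 16 ran from 2136 through 2708 to 3427 and those of sire 5 from 2535 through 2796 to 3200. Only 2 animals of sire 17 reached the lowest value of sire 16, and none that of sire 5. The difference of sire 17 from the mean of sires 16 and 5 was -0.54 ± 0.11 for MRPL50 (limma adjusted p = 7.0e-04) and -0.49 ± 0.08 for MRPL42 (limma adjusted p = 7.3e-05).

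Other genes of the same pattern were MRPL57, MRPL41, MRPS15 and MRPS24. MRPL57 and MRPL41, large subunit proteins without a bacterial counterpart, were lower by 0.50 ± 0.13 and 0.44 ± 0.10 in progeny of sire 17 (limma adjusted p = 0.0074 and 0.0021). MRPS15, which binds ribosomal RNA of the small subunit in bacteria, had a difference of -0.39 ± 0.09 (limma adjusted p = 0.0016). Its family means were 9.92 ± 0.06 for sire 17 (SD, n = 5), 10.33 ± 0.16 for sire 16 (SD, n = 8) and 10.30 ± 0.10 for sire 5 (SD, n = 8). The high sires, at 9.97 to 10.05, lay with sire 17.

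Sire 11 differed from sires 2 and 7 in both directions. Of the 64 genes 11 (17.2%) were called, close to the 19.6% of all detected genes. Progeny of sire 11 were lower for 6 (9.38%), compared with 11.8% of all genes called lower, and higher for 5. With median centring of the arrays the 11 calls were 3 lower and 8 higher, and the share of lower calls over all genes moved from 60.4% to 42.1%, so the balance of directions depended on the scaling. As deposited, the 6 were MRPL14, MRPL38, MRPL49, MRPS6, MRPS26 and MRPS27, and the 5 were MRPL2, MRPL50, MRPL51, MRPS16 and MRPS23. The median difference was 0.03, compared with -0.05 over all genes. With the 3′ to 5′ ratio as a covariate 7 of 64 were called, and 11.8% of all genes. The ratio averaged 0.17 in sire 11, 0.13 in sire 2 and 0.06 in sire 7.

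MRPS6 had the greatest difference of the 11. Its signal in the progeny of sire 11 ran from 248.7 through 364.7 to 453.2. In sire 2 it ran from 580.8 through 789.5 to 1051, and the 4 progeny of sire 7 gave 497.1, 557.0, 748.4 and 766.4. No animal of sire 11 overlapped with the other 2 families. The difference was -1.03 ± 0.17 (limma adjusted p = 2.8e-05). Without the progeny of sire 11 the difference of MRPS6 between muscling groups was -0.21 in place of -0.61 and was no longer called (limma adjusted p = 0.455, range over its alternatives 0.0026 to 0.455).

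MRPL49 and MRPL51 moved in opposite directions in sire 11. Neither has a bacterial counterpart. MRPL49 had medians of 796.6 in sire 11, 1287 in sire 2 and 1005 in sire 7, a difference of -0.54 ± 0.11 (limma adjusted p = 4.4e-04). MRPL51 had medians of 2665, 1925 and 2146, a difference of 0.44 ± 0.11 (limma adjusted p = 0.0027). Every progeny of sire 11 lay above every progeny of sires 2 and 7 for MRPL51, whose ranges were 2392 to 3416, 1651 to 2038 and 1969 to 2239. The levels of both genes were close between muscling groups, with differences of -0.01 ± 0.12 for MRPL49 and -0.05 ± 0.11 for MRPL51.

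**Figure D3:**
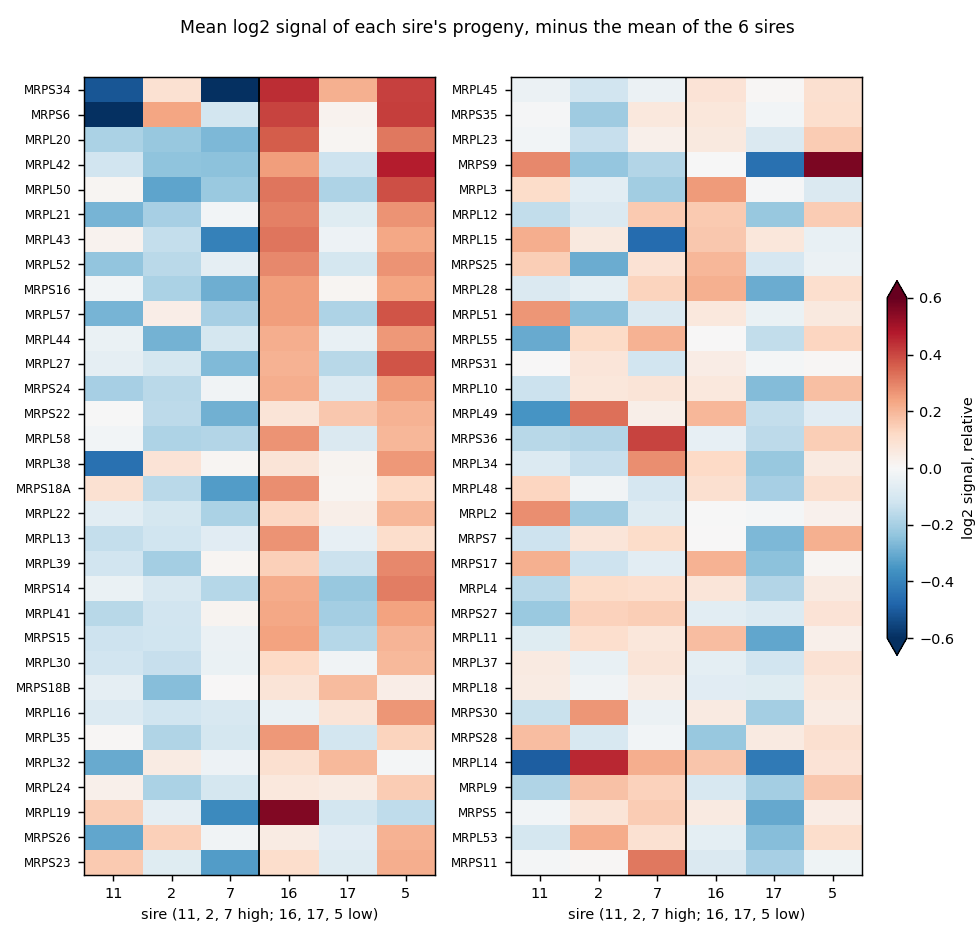
Mean log2 signal of each sire's progeny minus the mean of the 6 sires, for the 64 detected genes in order of the difference between muscling groups (most negative at the top left). Red is higher and blue lower, the scale ends at 0.6 either way with values beyond it drawn in the end colours, and the vertical line separates high from low sires; columns 16 and 5 are red for most genes of the left panel, while column 17 is often blue.

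Sires 16 and 5 had the 2 highest family means for 27 of the 64 genes (42.2%), compared with 22.9% of all detected genes, an order that was noticed in the values and then counted. Sire 5 had the highest mean for 26 genes and the lowest for 0. Sire 17 had the lowest mean for 20 genes and the highest for 2. Averaged over the 64 genes, each set to its own mean over the animals, progeny of sire 5 lay at 0.14 ± 0.16 (log2, SD, n = 8) and those of sire 16 at 0.12 ± 0.08 (SD, n = 8). The other families lay at -0.11 ± 0.06 for sire 17 (SD, n = 5), -0.10 ± 0.05 for sire 11 (SD, n = 8), -0.07 ± 0.07 for sire 2 (SD, n = 7) and -0.07 ± 0.09 for sire 7 (SD, n = 4). The 8 progeny of sire 16 were all above 0, between 0.02 and 0.22, and the 5 of sire 17 all below it, between -0.18 and -0.03. One animal of sire 5 reached 0.42 and another lay at -0.09.

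**Figure D4:**
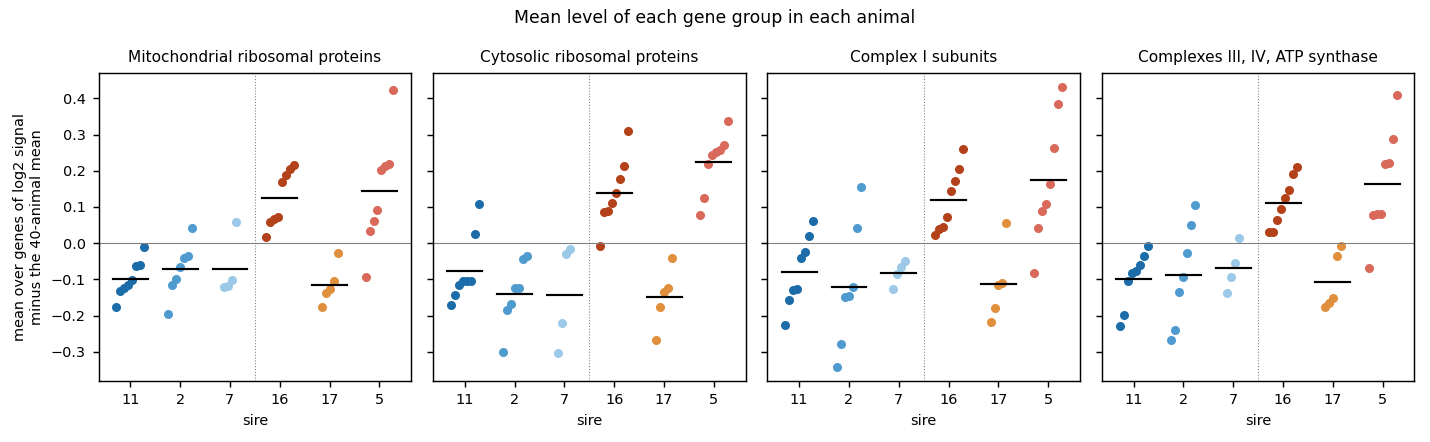
Mean over the genes of each group of the log2 signal minus the gene's mean over the 40 animals, 1 point per animal by sire, with family means as lines. In all 4 gene groups the family means of sires 16 and 5 are above 0 and those of sires 11, 2, 7 and 17 below it; for the mitochondrial ribosomal proteins they are 0.12 and 0.14 against -0.11 to -0.07.

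The other gene groups of protein synthesis and respiration also had their highest family means in sires 16 and 5, while the order of the other 4 sires differed between groups. Among the cytosolic ribosomal proteins, 18 of 66 were called lower in high muscling and none higher, among them RPL3 (-0.47 ± 0.09, limma adjusted p = 9.5e-04) and RPL14 (-0.33 ± 0.07, limma adjusted p = 0.0047). Of 36 complex I subunits 4 were lower, among them NDUFC2 (-0.39 ± 0.09, limma adjusted p = 0.0047) and NDUFB2 (-0.29 ± 0.08, limma adjusted p = 0.0135). Of 39 subunits of complexes III and IV and ATP synthase 8 were lower, among them COX7A2 (-0.56 ± 0.11, limma adjusted p = 9.5e-04) and ATP5ME (-0.45 ± 0.09, limma adjusted p = 0.0026). The median differences were -0.19, -0.17 and -0.11. Over all detected genes, 5.50% were called lower in high muscling. In progeny of sire 17, 54 of 66 cytosolic ribosomal protein genes, 20 of 36 complex I genes and 15 of 39 of the last group were called lower than in sires 16 and 5. The share was smaller for the mitochondrial ribosomal protein genes, at 15 of 64, and over all detected genes it was 9.70%.

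The mean level of the mitochondrial ribosomal protein genes in an animal followed that of the respiratory chain genes. Over the 40 animals it correlated with the mean of complexes III, IV and ATP synthase at r = 0.91 (rho = 0.86) and with complex I at r = 0.88 (rho = 0.81). Without the 2 animals farthest from the median r was 0.87 and 0.85, and with sire means removed 0.78 and 0.76. With the cytosolic ribosomal proteins r was 0.70 (rho = 0.66), also 0.70 without the 2 farthest animals, and 0.13 with sire means removed. With the summed fibroblast and macrophage markers (log2) r was 0.40 and 0.46, and -0.22 and -0.17 with sire means removed. All these values come from the same arrays and share their scaling, so they are given as descriptions.

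Single pairs of mitochondrial ribosomal protein genes were only weakly correlated. The median Pearson r over the 2016 pairs was 0.19 (Spearman rho 0.18), and 80.2% of pairs were above 0. It was 0.10 with sire means removed. Over all pairs of detected genes the median was 0.01, and for pairs within the cytosolic ribosomal proteins 0.68, within complex I 0.50 and within complexes III, IV and ATP synthase 0.41. With sire means removed these medians were 0.002, 0.46, 0.44 and 0.35. As measured, large subunit pairs had a median of 0.20, small subunit pairs 0.13, and pairs of a large with a small subunit gene 0.18. Within high muscling animals the median over the 64 genes was 0.040 and within low muscling animals 0.25. Without the progeny of sire 5 it was 0.12.

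**Figure D5:**
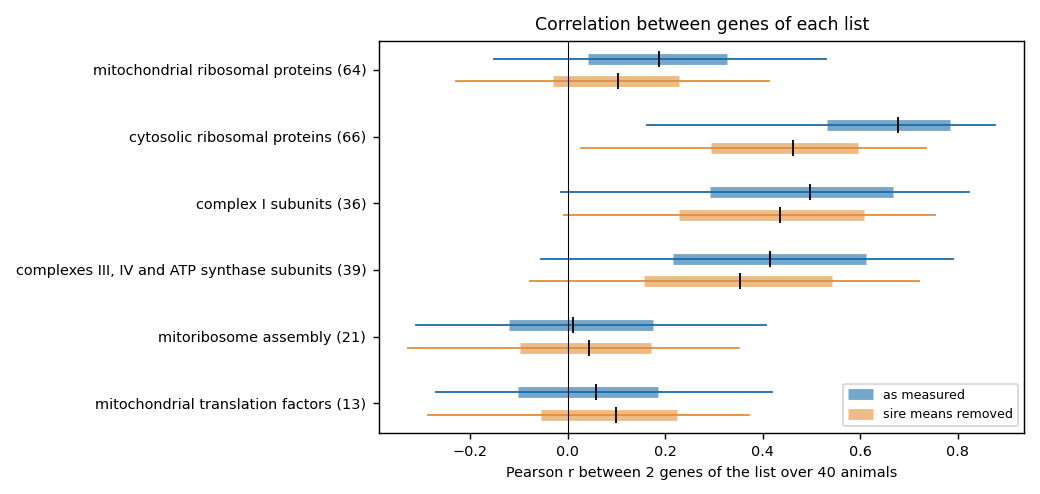
Pearson r between pairs of genes within each list over the 40 animals, as measured (blue) and with sire means removed (orange). Ticks are medians, thick bars the middle 50% of pairs and thin lines the middle 90%; numbers in brackets are detected genes, and the median of the mitochondrial ribosomal proteins (0.19 as measured) lies between those of the assembly factors (0.01) and of complexes III, IV and ATP synthase (0.41).

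The genes with the highest mean r to the others were MRPS24 (0.35), MRPL42 (0.35) and MRPL21 (0.33), 3 of the genes called between muscling groups. With sire means removed their mean r was 0.17, 0.18 and 0.17, below that of MRPL51 (0.22) and MRPL2 (0.22). The highest single pair was MRPL42 with MRPS24, at r = 0.77, which was 0.30 with sire means removed. For MRPL2 with MRPL51, both higher in sire 11, r was 0.74 and remained at 0.60. The genes with the lowest mean r were MRPS28 (-0.005), MRPS18B (0.01) and MRPL53 (0.03), the last without a bacterial counterpart. The most negative pair was MRPL51 with MRPS6, at r = -0.54.

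The spread over animals differed between the genes. MRPL45, which helps to hold the ribosome at the inner membrane, had the smallest SD (0.15 on the log2 scale), with signals from 760.1 to 1147. MRPL18 and MRPL24, both counterparts of bacterial large subunit proteins, followed with 0.17 and 0.19. The greatest SDs were those of MRPS34 (0.79, signals from 37.0 to 288.9), MRPS9 (0.76, from 73.8 to 671.6) and MRPS6 (0.62). MRPS34 thus reached below the detection limit in some animals, and its difference between muscling groups of -0.70 ± 0.31 was not called (limma adjusted p = 0.1704).

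Further probe sets of a gene did not always follow the first. The lowest correlations with the probe set used were those of MRPL14 (r = -0.08), MRPL39 (r = 0.01 for the dimmest of its 3) and MRPS34 (r = 0.07). The further probe sets of MRPL14 and MRPL39 were under the detection limit, while that of MRPS34 reached 106.1. The call of MRPL14 in the F-test (limma adjusted p = 0.0258) was lost with the mean over both probe sets (0.5153). A detected further probe set of MRPL39 correlated with the first at r = 0.74, and those of MRPL23 at r = 0.89 and 0.64. Other detected ones followed less closely, at r = 0.29 for 1 of MRPS9, 0.30 for that of MRPS35 and 0.40 for that of MRPS28. The remaining detected ones ran from 0.52 for MRPL20 to 0.67 for MRPL43.

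Other genes of mitochondrial translation, and genes of mitochondrial DNA upkeep, transcription and biogenesis, were counted from lists of known members. None of the 72 detected genes in these 6 lists was called between muscling groups by limma. An unadjusted limma p under 0.05 was found for 9 of them, compared with 1386 of all 6360 detected genes. The F-test among sires called 14 of the 72, compared with 22.0% of all detected genes. Of 6 mitoribosome proteins with other symbols, 1 was called among sires, CHCHD1 of the small subunit (limma adjusted p = 0.0391), whose difference between muscling groups was -0.32 ± 0.12 (limma adjusted p = 0.0930). GADD45GIP1, a large subunit protein, had a difference of -0.22 ± 0.11 (limma adjusted p = 0.2382). Of 21 assembly factors 3 were called among sires. YBEY, an RNase, had a difference between muscling groups of -0.50 ± 0.17 (limma adjusted p = 0.0532), and AFG3L2, a protease subunit that processes MRPL32, of 0.38 ± 0.16 (limma adjusted p = 0.1302).

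Of 13 translation factors 4 were called among sires, and the initiation factor MTIF2 and the release factor MTRF1L had differences between muscling groups of 0.29 ± 0.14 and -0.36 ± 0.17 (limma adjusted p = 0.2235 and 0.2140). Of 15 aminoacyl-tRNA synthetases and tRNA charging proteins 2 were called among sires. CARS2, which charges the cysteine tRNA, and GATB, of the glutamine amidotransferase, gave -0.23 ± 0.18 and 0.39 ± 0.18 (limma adjusted p = 0.4814 and 0.2001). Of 12 genes of mitochondrial DNA upkeep and transcription 3 were called among sires, and POLG2 and SSBP1, of the DNA replication machinery, both gave -0.19 (limma adjusted p = 0.3279 and 0.1880). Of 5 regulators of mitochondrial biogenesis 1 was called among sires, and MYC and YY1, both transcription factors, gave -0.89 ± 0.31 and 0.29 ± 0.13 (limma adjusted p = 0.0736 and 0.1721). The median differences of these 6 lists ran from -0.11 to 0.05. Their median correlations within a list, computed for 4 of the 6, ran from 0.004 for the synthetases to 0.06 for the translation factors. With sire means removed the median of the translation factors was 0.10, and that of the mitochondrial ribosomal proteins was also 0.10.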

How the data were processed

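LD muscle of 40 sheep, 1 GeneChip Bovine Genome array each, was analysed. The authors deposited MAS5 signals, which are linear intensity values for each probe set, with every array scaled to a trimmed mean of 200; the MAS5 version is not given in the sources used here. Of 24128 probe sets, 112 were controls, 13292 had 1 gene symbol in the platform annotation (with bovine gene identifiers), 86 several and 10638 none. Intensities were taken as log2 and not normalised again. No counts underlie arrays, so their number limits the precision.

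Muscling groups were compared in limma (3.58.1, R 4.3.3) with sire as a random block. The intra-sire correlation, 0.135, was 1 value estimated over all detected genes and used for each of them. The p of a gene that differs more among sires, such as MRPL42 or MRPS6, can therefore be too small. Sires within groups were compared by limma's F-test and 4 contrasts (11 against 2 and 7, 2 against 7, 17 against 16 and 5, 16 against 5). Each fit held all 40 animals and all 6360 detected genes. P-values were adjusted by Benjamini-Hochberg over those genes and called under 0.05. Progeny are separate animals. Python (3.11.15), numpy (2.4.6), pandas (2.3.3) and scipy (1.17.1) gave summaries. The scripts were tested on simulated data.

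Genes were named by rule: the 10 with the smallest p in each comparison, the 3 highest and lowest in mean r, SD and mean signal, the 3 with the least correlated probe sets and, in other lists, the 2 with the smallest p between groups. Members and lists were chosen with earlier results of these data known. Alternatives changed normalisation, detection filter, probe set rule, low signals, array quality covariates, moderation, block and families. No reference sequence of the genes was used.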

Additional observations from a re-analysis of the deposited data

Results flagged for a closer look

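Within sire families, 15 of 168 combinations of a named gene and a family held an animal whose gap to its nearest relative was a large share of the family's range (Dixon's test at 95%, which chance alone passes in about 1 in 20 groups). All values are log2 signals.

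For MRPL20, which was called between muscling groups, progeny 5 of sire 2 lay at 11.11 (the others from 10.60 to 10.78), progeny 41 of sire 5 at 11.74 (11.14 to 11.40) and progeny 85 of sire 17 at 10.75 (11.02 to 11.12). For MRPS34, the detected gene with the widest spread, progeny 5 of sire 2 lay at 5.21 (6.92 to 7.75), progeny 21 of sire 16 at 5.98 (7.13 to 7.95) and progeny 79 of sire 17 at 7.96 (6.76 to 7.03). Progeny 21 of sire 16 was also low for MRPS9, at 6.38 (7.91 to 8.59).

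Low values were further found for MRPL14 in progeny 11 of sire 5, at 5.36 (7.22 to 7.94), for MRPL49 in progeny 62 of sire 2, at 9.84 (10.27 to 10.55), for MRPL57 in progeny 51 of sire 11, at 8.08 (8.49 to 8.78), and for the undetected MRPL36 in progeny 47 of sire 2, at 3.25 (5.63 to 5.94). High values were found for MRPL43 in progeny 69 of sire 7, at 11.16 (10.58 to 10.64), for MRPL51 in progeny 35 of sire 11, at 11.74 (11.22 to 11.45), for MRPS18B in progeny 39 of sire 17, at 8.91 (7.88 to 8.01), and for the undetected MRPL46 in progeny 58 of sire 7, at 6.07 (4.15 to 4.47).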

How the results depend on the processing

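The number of mitochondrial ribosomal protein genes called between muscling groups was 7, and 5 to 8 under the other scalings, filters, probe set rule, floor, quality covariates and moderation, with 4.84% to 8.90% of all genes called. It was 22 without the sire block (24.9% of all genes) and 0 with sire means as samples. With sire means, 5 of the 64 had an unadjusted limma p under 0.05, compared with 886 of all 6360 detected genes. When families were left out in turn, the number called was 0 to 15 (0.362% to 19.2% of all genes). It was 0 without sire 16 or 5, 15 without sire 17, 8 without sire 11 and 4 without sire 2 or 7. Every such call was lower in high muscling. The median difference over the genes stayed between -0.19 and -0.11 in all these settings.

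Calls among sires numbered 15 to 22 (18 as reported). Sire 17 against sires 16 and 5 gave 10 to 18 calls (15 as reported) and, with 1 progeny of sire 7 or 17 left out, 8 to 15, the 8 without progeny 85 of sire 17 (10.6% of all genes, 14.1% as reported). Sire 11 against sires 2 and 7 gave 7 calls with the 3′ to 5′ ratio as a covariate (11 as reported; 11.8% of all genes, 19.6% as reported) and 9 to 12 with 1 progeny of sire 7 or 17 left out. No animal of the other families was left out singly. The median r among the genes, 0.19, was 0.10 with sire means removed, 0.040 within high and 0.25 within low muscling, and 0.12 to 0.21 with a family left out. For the F-test among sires, 443 of 450 combinations of a named gene and a setting kept their side of the threshold, 2 lost a call and 5 gained one. Between muscling groups 367 of 425 kept their side, 36 lost a call and 22 gained one. Most of the 425 belong to genes with no call to lose. All 36 losses fell on the 7 genes called as reported. MRPL21 and MRPL50 lost theirs under quantile normalisation (adjusted p = 0.0556 and 0.0554) and median centring. The cause of these changes was not tested. No paired analysis was possible because the labels pair no animals: replicate numbers only name them within a group.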
